A study of Rattus norvegicus with 12 samples.

Results

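The miR-23/24/27 clusters are a pair of short stretches of the rat genome that each encode a miR-23, a miR-27 and a miR-24. Members were chosen by assay name in the table of cycle thresholds. The assays mmu-miR-24, mmu-miR-23b, mmu-miR-27a and mmu-miR-27b have a row, which makes 4 of the 154 miR assays. There is no row of mmu-miR-23a, which was not analysed here. The labels do not say why mmu-miR-23a has no row. Each member has a single assay, named after the mouse miR. The authors included miRs found on every array, so no Ct of the 4 members could be missing on the 12 arrays.

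The arrays were TaqMan rodent microRNA cards, quantitative PCR plates in which each well assays 1 miR. Each array was run on RNA of a single dorsal root ganglion (DRG), the tissue that holds the cell bodies of sensory neurons, taken on the injured side from adult male Sprague-Dawley rats 23 days after surgery. In Sham the sciatic nerve was exposed with its branches and left whole. In Sural-SNI (spared nerve injury) the common peroneal and tibial branches were ligated and cut and the sural branch was spared, and in Tibial-SNI the common peroneal and sural branches were ligated and cut and the tibial branch was spared. There were 4 arrays per surgery group, 2 of the third lumbar ganglion (L3-DRG) and 2 of the fourth (L4-DRG), numbered replicate 1 and replicate 2. In the paper, tracer put on the cut branches marked injured neurons in L4-DRG and not in L3-DRG, on a later day. It describes a larger share of them after Sural-SNI than after Tibial-SNI. The labels do not say whether equal numbers or both levels came from the same rat, so p-values measure the spread between these arrays. A DRG also holds satellite glia, Schwann cells and vessels, and in such bulk tissue fewer cells of a type and less RNA per cell cannot be told apart.

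The miRs are short RNAs that guide a silencing complex to messenger RNAs, mainly by pairing of the seed, the bases near their 5′ end. Genes of a cluster are transcribed as 1 long precursor, from which the hairpins are cut, and each mature miR is then loaded and degraded on its own. miR-23, miR-24 and miR-27 are present in many tissues, and are known from blood vessels, muscle and blood cells among others. The mature sequences below are shown because they set which members can bind the same targets and which assays have to tell near-identical RNAs apart. They are the rat 3p arms of RefSeq on GRCr8, 5′ to 3′, with the seed (bases 2 to 8) in capitals, and the sequences of the assays themselves were not used here.
rno-miR-24-3p: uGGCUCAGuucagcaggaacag
rno-miR-23b-3p: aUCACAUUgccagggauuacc
rno-miR-23a-3p: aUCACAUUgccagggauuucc
rno-miR-27b-3p: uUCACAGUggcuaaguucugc
rno-miR-27a-3p: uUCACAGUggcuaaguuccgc

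The same mature miR-24-3p is encoded by both clusters. Mir24-1 lies with Mir27b and Mir23b in 814 bases on the minus strand at chr17:1818669-1819482. Mir24-2 lies with Mir27a and Mir23a in 389 bases on the minus strand at chr19:40859455-40859843. The assay of miR-24 can therefore not assign its RNA to a cluster, whereas miR-23b and miR-27b are specific to the chromosome 17 cluster and miR-27a to that of chromosome 19. miR-27a and miR-27b share the seed UCACAGU and differ by a single base in 21, C19U, counted from the 5′ end of miR-27a. miR-23a and miR-23b differ by U19A, counted from the 5′ end of miR-23a. Among the 693 mature rat miRs of the table the seed of miR-24 belongs to miR-24 alone, and the seed of miR-27 to miR-27a and miR-27b alone. Whether the assays of miR-27a and miR-27b detect each other's RNA was not tested.

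miR-24 was the earliest miR of the arrays and the other members were late. The Ct is the cycle of PCR at which a well's signal crosses its threshold, and is lower for more RNA. That of miR-24 averaged 20.1 over 12 arrays, and none of the 154 miRs had a lower mean. The next earliest was miR-126-3p, a miR of endothelium, at a mean Ct of 22.0. The mean Ct was 29.5 for miR-27a, 30.1 for miR-27b and 30.6 for miR-23b, beside a median of 29.2 over all miRs. The Ct of miR-24 minus that of miR-23b was −10.5 ± 1.53 cycles, that of miR-27a −9.38 ± 1.52 and that of miR-27b −9.95 ± 2.64 (SD, n = 12 arrays). Assays can differ in efficiency, so these gaps are gaps in Ct and were not converted to copies.

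**Figure D1:**
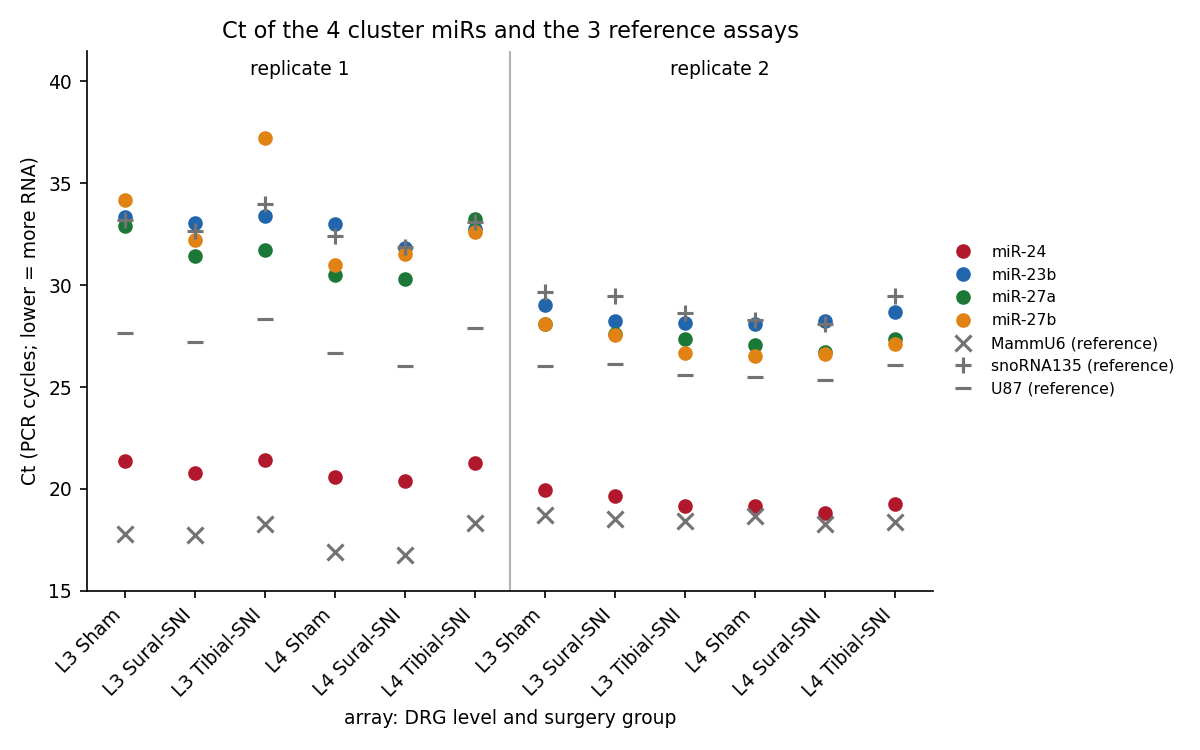
Ct in PCR cycles (y axis) of miR-24, miR-23b, miR-27a, miR-27b and the reference assays MammU6, snoRNA135 and U87 on each of the 12 arrays (x axis, by replicate number, DRG level and surgery group); each point is 1 array. miR-24 lay between 18.8 and 21.4 on every array, and the other members were lower on all replicate 2 arrays than on any replicate 1 array.

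Among the members the replicate number separated the Ct values more than surgery or DRG level did. The Ct of miR-24 ranged from 20.4 to 21.4 on the 6 arrays of replicate 1 and from 18.8 to 19.9 on the 6 of replicate 2. The Ct of miR-23b was 31.8 to 33.4 against 28.1 to 29.0, and that of miR-27a 30.3 to 33.2 against 26.7 to 28.1. For miR-27b, replicate 1 gave 31.0 to 37.2 and replicate 2 gave 26.5 to 28.1. In all 4 members every replicate 1 array was later than every replicate 2 array, which held for 55.2% of all miRs.

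The size of this shift differed within the clusters. Replicate 1 was later than replicate 2 by 1.64 cycles for miR-24, 4.33 for miR-27a, 4.49 for miR-23b and 6.02 for miR-27b, while the median over the 154 miRs was 2.05. A larger shift than that of miR-27b was found in 2 miRs, than that of miR-23b in 11, than that of miR-27a in 13 and than that of miR-24 in 98. Late miRs did not all shift this far: the 60 miRs with a mean Ct of 30 or more had a median shift of 2.26, with a range of −2.67 to 6.02, the highest being miR-27b itself. The reference assays shifted too and not alike, by −0.86 for MammU6, 1.52 for U87 and 3.94 for snoRNA135. Neither the labels nor the methods give what the replicate number stands for, and its part in the values below was not tested beyond the fits with and without it.

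**Figure D2:**
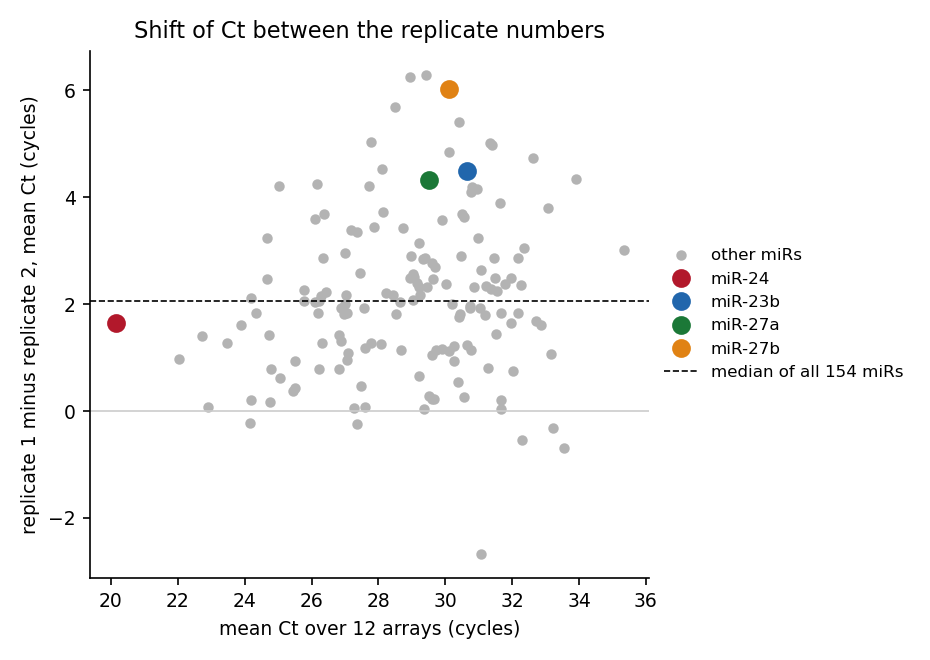
Mean Ct of the 6 replicate 1 arrays minus that of the 6 replicate 2 arrays (y axis, cycles) against the mean Ct over 12 arrays (x axis, cycles), 1 point per miR, with the 4 members in colour and the median of all 154 miRs, 2.05, as a dashed line. miR-24 lies at the far left just under the median line, and miR-23b, miR-27a and miR-27b lie 2 cycles or more above it.

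Levels were compared as −ΔCt, the mean Ct of MammU6, snoRNA135 and U87 minus the Ct of the miR, a log2 scale on which higher is more. On this scale miR-24 had an SD of 0.25 over 12 arrays, with 2 of 154 miRs below it. Its shift between replicate numbers was close to that of the mean of the references, in which the opposite shifts of MammU6 and snoRNA135 partly cancel. Within replicate 1 a smaller SD than that of miR-24 was found in 31 miRs, and within replicate 2 in 8. The SD was 1.57 for miR-27a, 1.59 for miR-23b and 2.63 for miR-27b, the largest of all miRs. Within replicate 2 alone the 4 members were closer, with SDs of 0.17 for miR-24, 0.21 for miR-27a, 0.28 for miR-23b and 0.34 for miR-27b over 6 arrays. Within replicate 1 they were 0.32, 0.82, 0.49 and 1.73 in the same order.

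Surgery was then compared with Sham over both levels, in order to ask which members differ after either injury. The L3-DRG arrays in these groups are of a ganglion without marked injured neurons. miR-24 was higher in every Tibial-SNI array than in any Sham array, by a small amount that did not pass the test across all miRs. In Sham its −ΔCt was 4.86 and 4.88 in L3-DRG and 4.75 and 4.96 in L4-DRG (replicate 1 and 2). In Tibial-SNI it was 5.42 and 5.07 in L3-DRG and 5.14 and 5.38 in L4-DRG. In Sural-SNI it was 5.11 and 5.06 in L3-DRG and 4.51 and 5.10 in L4-DRG. The Tibial-SNI arrays lay above all Sham arrays, a pattern shared by 2 of 154 miRs (1.30%), whereas the Sural-SNI arrays lay on both sides of Sham.

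The difference of Tibial-SNI from Sham was 0.39 for miR-24 (SE 0.26, 95% interval −0.18 to 0.96, limma adjusted p = 0.997), a fold of 1.31. With the DRG level and replicate number as a block the interval narrowed to −0.03 to 0.81, with an unadjusted p of 0.0655 and an adjusted p of 0.452 by limma. With a variance trend in place of the block, limma gave an unadjusted p of 0.0248 and an adjusted p of 0.997. The exact permutation test on the 4 arrays against 4 gave p = 0.0286 two-sided, the smallest that 70 splits allow, and 1.00 after adjustment over all miRs. The log2(fold change) against the Sham array of the same level and number was 0.57, 0.18, 0.39 and 0.42, above 0 in 4 of 4 pairs, as in 18.2% of all miRs. Many miRs lay on this side: 125 of 154 were higher in Tibial-SNI than in Sham, with a median difference of 0.23, and 49 exceeded miR-24. Taken against the mean of all miRs, the difference of miR-24 was 0.15, and the arrays of Tibial-SNI and Sham then overlapped. They also overlapped with MammU6 or snoRNA135 alone as the reference, and did not overlap with U87 alone. With MammU6 alone the Sham arrays, split by replicate number, ranged from −3.68 to −0.52, and with snoRNA135 alone from 9.10 to 11.84. A difference of 0.39 could not avoid overlap there, so those references cannot test the pattern.

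The difference of Sural-SNI from Sham was 0.08 for miR-24 (SE 0.26, 95% interval −0.49 to 0.65, limma adjusted p = 1.00). It was above 0 in 3 of 4 pairs, at 0.25, 0.18, −0.24 and 0.14, and 87 of 154 miRs exceeded it. Taken against the mean of all miRs it turned to −0.072. Both injuries were set against the same 4 Sham arrays, so these comparisons are not independent.

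**Figure D3:**
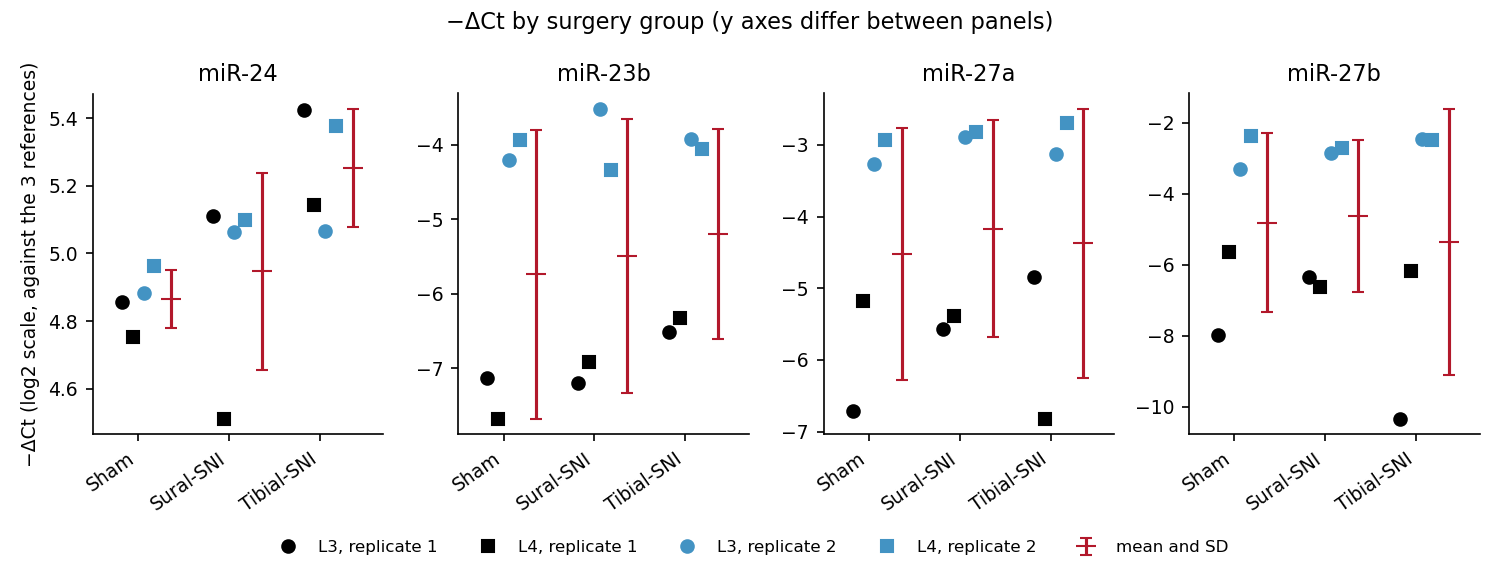
−ΔCt (y axis, log2 scale, a separate range for each panel) of the 4 members in the Sham, Sural-SNI and Tibial-SNI groups (x axis), 1 point per array with the level as its shape and the replicate number as its colour, and the mean and SD of the 4 arrays in red. The Tibial-SNI points of miR-24, 5.07 to 5.42, are above all Sham points, 4.75 to 4.96; in the other panels the replicate numbers form separate bands within every group.

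miR-23b, a member of the chromosome 17 cluster, had its highest mean in Tibial-SNI, though well within the spread. Its −ΔCt was −7.13, −4.21, −7.68 and −3.94 in Sham (L3-DRG replicate 1 and 2, then L4-DRG replicate 1 and 2). It was −6.51, −3.92, −6.33 and −4.06 in Tibial-SNI. It was −7.19, −3.52, −6.91 and −4.34 in Sural-SNI. Within replicate 1 both Tibial-SNI arrays lay above both Sham and both Sural-SNI arrays, and within replicate 2 the 3 groups overlapped. Tibial-SNI differed from Sham by 0.53 (SE 1.17), and with the replicate block by the same amount with an SE of 0.28 (95% interval −0.11 to 1.18, unadjusted p = 0.0929, limma adjusted p = 0.452). The difference was 0.98 within replicate 1 and 0.09 within replicate 2. Sural-SNI differed from Sham by 0.25, with a 95% interval of −0.39 to 0.89 under the block.

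miR-27a, of the chromosome 19 cluster, moved in opposite ways in single arrays of replicate 1. Its −ΔCt was −6.71, −3.27, −5.18 and −2.93 in Sham, in the same order. It was −4.85, −3.13, −6.82 and −2.70 in Tibial-SNI. It was −5.57, −2.89, −5.39 and −2.82 in Sural-SNI. In replicate 1 the lowest values were those of L4-DRG Tibial-SNI and L3-DRG Sham, and in replicate 2 all values of both SNI groups stood above the Sham value of the same level. The log2(fold change) in Tibial-SNI was 1.86 in L3-DRG and −1.64 in L4-DRG of replicate 1, and 0.13 and 0.23 in replicate 2. The mean difference from Sham was 0.15 in Tibial-SNI (95% interval −0.89 to 1.19 with the replicate block) and 0.35 in Sural-SNI (−0.68 to 1.39).

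miR-27b, the near-identical partner of miR-27a, varied most. Its −ΔCt was −7.97, −3.29, −5.63 and −2.36 in Sham, in the same order. It was −10.3, −2.44, −6.17 and −2.49 in Tibial-SNI. It was −6.35, −2.85, −6.61 and −2.70 in Sural-SNI. The lowest value belonged to the L3-DRG Tibial-SNI array of replicate 1, whose Ct of 37.2 was near the last of the 40 cycles. The difference of Tibial-SNI from Sham was −0.54 with all arrays (95% interval −2.10 to 1.02 with the replicate block) and 0.30 (−0.75 to 1.35) with the block and without that array. Sural-SNI differed from Sham by 0.19, and 2 of 4 pairs were above 0.

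None of the 4 members passed an adjusted p of 0.05 in either comparison with Sham by limma, and none passed an unadjusted p of 0.05 without or with the block. Over all 154 miRs the share past the adjusted threshold was 0% in both comparisons, without and with the replicate block. At an unadjusted p of 0.05 it was 0.649% for Tibial-SNI and 0% for Sural-SNI without the block, and 9.74% and 6.49% with it. The one-sample test of the methods gave miR-24 in Tibial-SNI an unadjusted p of 0.0160 in a family of 154 (no permutation), past 0.05 as in 9.74% of all miRs, and an adjusted p of 0.415. None of the members passed that test in Sural-SNI, against 5.19% of all miRs.

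Tibial-SNI and Sural-SNI were compared because the study set them up as injuries with different pain outcomes. miR-24 was higher in Tibial-SNI in 4 of 4 pairs, by 0.31, 0.00, 0.63 and 0.28, as in 9.09% of all miRs. The difference of 0.31 had an SE of 0.25 (95% interval −0.26 to 0.87, limma adjusted p = 0.995), and the exact permutation test gave p = 0.0571. It was 0.20 to 0.41 with each array left out in turn. The value of 0.20 was reached both without the L4-DRG Sham array and without the L4-DRG Sural-SNI array of replicate 1. Within replicate 1 it was 0.47 and within replicate 2 it was 0.14. Without the block the one-tailed limma p of miR-24 was 0.125, short of the threshold of 0.09 used by the study. That threshold was passed by 16 of 154 miRs (10.4%). With the replicate block the 95% interval was −0.19 to 0.80 (limma adjusted p = 0.784). Its one-tailed limma p was then 0.0889, just under 0.09, and the share of all miRs under 0.09 with the block was not counted. By the methods' unpaired test, which uses the spread of each miR alone, its one-tailed p was 0.0330 (no permutation), and 11.0% of all miRs passed that threshold. Each one-tailed p was taken in the direction observed, and these shares count either direction. The threshold is therefore laxer here than for a direction set in advance.

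The partners of miR-24 had no common direction in this comparison. miR-23b differed by 0.29 (95% interval −0.34 to 0.91 with the replicate block), miR-27a by −0.21 (−1.16 to 0.74) and miR-27b by −0.73 (−2.80 to 1.34). miR-27b was nevertheless higher in Tibial-SNI in 3 of 4 pairs, and its difference was 0.35 (−0.20 to 0.91) with the block and without the L3-DRG Tibial-SNI array of replicate 1. At an adjusted p of 0.05 by limma 0 of the 4 members passed, against 0.649% of all miRs, and 0 of 4 passed unadjusted, against 2.60%. With the replicate block the shares of all miRs were 0% adjusted and 3.90% unadjusted, and 0 of the 4 members passed either.

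**Figure D4:**
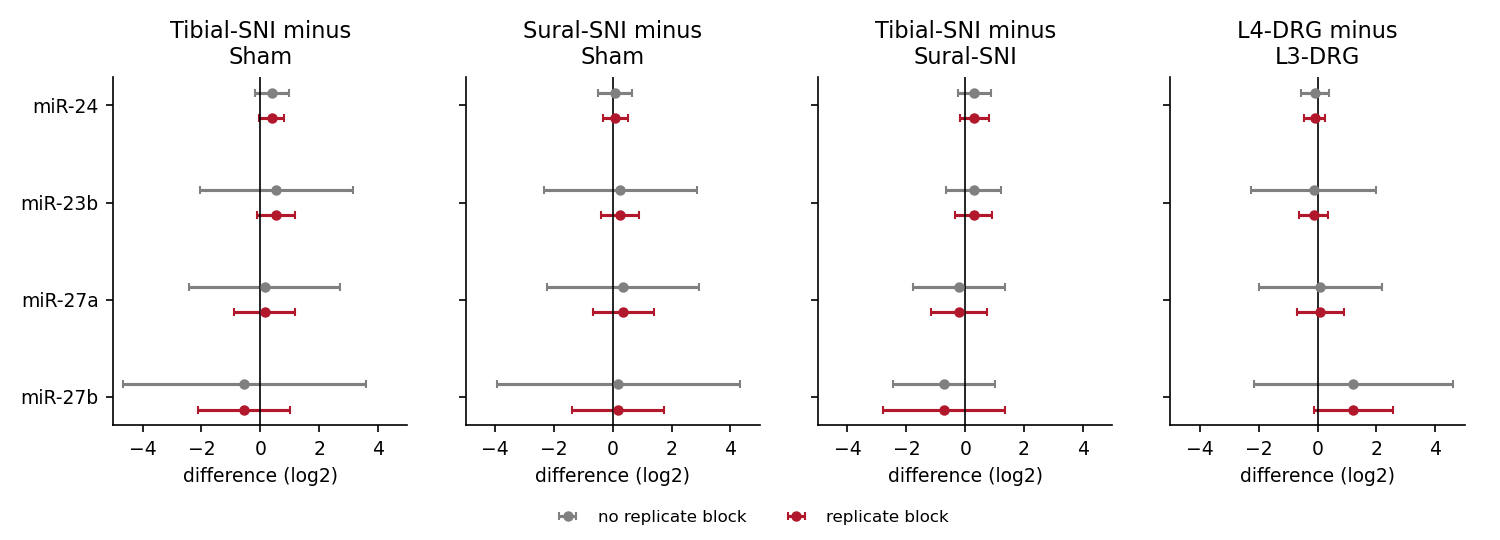
Differences of the 4 members (rows) in 4 comparisons (panels), on the log2 scale (x axis), with 95% intervals from limma without (grey) and with (red) the DRG level and replicate number as a block; in the L4-DRG minus L3-DRG panel the block is the replicate number. All intervals include 0, those of miR-24 are the narrowest, and the block shortens those of miR-23b, miR-27a and miR-27b against Sham.

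The lumbar levels were compared next, each over all 3 surgery groups. For miR-24 the group means, from low to high, were 4.80 in L4-DRG Sural-SNI, 4.86 in L4-DRG Sham, 4.87 in L3-DRG Sham, 5.09 in L3-DRG Sural-SNI, 5.24 in L3-DRG Tibial-SNI and 5.26 in L4-DRG Tibial-SNI. The arrays of neighbours in this order overlapped, except those of L3-DRG Sham and L3-DRG Sural-SNI, of which there are 2 each. Averaged over surgery, L4-DRG minus L3-DRG was −0.09 for miR-24 (95% interval −0.56 to 0.37), −0.13 for miR-23b and 0.09 for miR-27a. For miR-24 and miR-23b the sign turned with MammU6 alone as the reference, and for miR-27a with snoRNA135 alone.

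miR-27b had the highest L4-DRG minus L3-DRG difference of all 154 miRs, 1.21, without passing the test. Its 95% interval was −0.12 to 2.55 with the replicate block (unadjusted p = 0.0699, limma adjusted p = 0.631). The pairs of equal surgery and number gave 2.34 and 0.93 in Sham, −0.26 and 0.15 in Sural-SNI, and 4.16 and −0.04 in Tibial-SNI. Most of the mean thus came from replicate 1 of Sham and of Tibial-SNI, and without the L3-DRG Tibial-SNI array of replicate 1 the difference was 0.12, or 0.61 (−0.18 to 1.39) with the block. At an adjusted p of 0.05 by limma 0 of 4 members passed, against 0% of all miRs without and with the block, and at an unadjusted p 0 of 4, against 1.95% and 7.14%.

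Whether the response to surgery depended on the level was also tested. miR-27b in Sural-SNI was above Sham in both L3-DRG pairs, by 1.62 and 0.44, and below it in both L4-DRG pairs, by −0.98 and −0.34, a difference between levels of −1.69 (95% interval −5.05 to 1.67 with the replicate block, limma adjusted p = 0.738). miR-27a in Tibial-SNI had a difference between levels of −1.70 (−3.48 to 0.08 with the block, unadjusted p = 0.0587, limma adjusted p = 0.414), which came from the values of 1.86 and −1.64 of replicate 1. For miR-24 the difference between levels was −0.27 in Sural-SNI, 0.03 in Tibial-SNI and 0.30 between the injuries, each with an SE of 0.58. None of the 12 level differences of the members passed an adjusted or an unadjusted p of 0.05 by limma without or with the block. The share of all miRs past the adjusted threshold was 0% in the 3 comparisons under both fits. Unadjusted, it was 0.649% in Sural-SNI, 1.30% in Tibial-SNI and 0.649% between the injuries, and 7.79%, 10.4% and 3.90% with the block.

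Covariation was measured within each replicate number, since the arrays form separate bands by number and a pooled correlation would mainly measure that gap. There were 6 pairs of members and 2 numbers, giving 12 relations over 6 arrays each. In −ΔCt the highest was that of miR-24 with miR-27a in replicate 2, with Pearson r = 0.79 (exact permutation p = 0.0556, adjusted p = 0.667) and Spearman rho = 0.83 (exact permutation p = 0.0583, adjusted p = 0.700). It dropped to r = 0.12 without the 2 arrays farthest from the median of miR-24, so on this scale it rests on those arrays. The same pair gave r = 0.05 in replicate 1 (exact permutation p = 0.929).

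The other relations were smaller in size and of either sign. miR-24 and miR-27b had r = −0.59 in replicate 1 (exact permutation p = 0.224) and r = 0.48 in replicate 2 (exact permutation p = 0.318). miR-24 and miR-23b had r = 0.54 in replicate 1 (exact permutation p = 0.260) and r = 0.01 in replicate 2 (exact permutation p = 0.985). miR-23b and miR-27b, which share the chromosome 17 cluster, had r = −0.45 in replicate 1 (exact permutation p = 0.372) and r = 0.16 in replicate 2 (exact permutation p = 0.740). miR-27a and miR-27b, which share the seed, had r = −0.27 (exact permutation p = 0.669) and r = 0.53 (exact permutation p = 0.278). None of the 12 passed an adjusted p of 0.05, the lowest being 0.667, and 6 arrays give little precision. Several of these r also moved far without the 2 arrays farthest from the median of the first-named miR. That of miR-24 with miR-27b went to 0.10 in replicate 1 and −0.67 in replicate 2. That of miR-23b with miR-27b in replicate 2 went to 0.92, and that of miR-24 with miR-23b in replicate 1 to 0.78.

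Before division by the references all 12 relations of Ct were positive. The highest were found in replicate 2, between miR-24 and miR-27a at r = 0.97, miR-24 and miR-27b at r = 0.93 and miR-27a and miR-27b at r = 0.90, each with an exact permutation adjusted p of 0.0333. By Spearman's rho the same 3 relations each had an exact permutation adjusted p of 0.140, so none passed by rank. These include what all assays of an array share, such as the amount of RNA, and with the mean Ct of all miRs subtracted the adjusted p of Pearson's r was at least 0.833 in all 12. After that subtraction miR-24 with miR-27a in replicate 2 gave r = 0.75 (exact permutation p = 0.0944, adjusted p = 0.833), and r = 0.79 without the 2 farthest arrays. On Ct it was 0.90 without them.

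Over the 12 arrays the miRs whose pattern was most like that of miR-24 were not its cluster partners. With the mean of each replicate number removed from −ΔCt, the highest r over the 12 arrays was 0.90 with miR-191, followed by miR-103 at 0.88, miR-574-3p at 0.83, miR-193b at 0.83 and miR-342-3p at 0.82. These r are descriptions over arrays that share their reference wells, and the median r of miR-24 with the 153 other miRs was 0.30. miR-23b ranked 54th with r = 0.42, miR-27a 103rd with r = 0.14 and miR-27b 149th with r = −0.47. These r are weighted to replicate 1, where the members spread more. Its L3-DRG Tibial-SNI array held both the highest miR-24, 5.42, and the lowest miR-27b, −10.3. In replicate 2 alone the r with miR-24 was 0.79 for miR-27a and 0.48 for miR-27b, and ranks there were not computed. Taken against the mean of all miRs, miR-191 remained first with r = 0.92, and miR-574-3p, miR-193b and miR-342-3p remained among the first 5. There miR-23b had r = 0.21, miR-27a r = −0.34 and miR-27b r = −0.32.

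Markers of cell types that a ganglion sample can hold were read beside these values, as the mean −ΔCt of their miRs. The sensory neuron list (3 of 4 miRs had a row) averaged −0.52 ± 0.23 in Sham, −0.58 ± 0.39 in Sural-SNI and −0.58 ± 0.42 in Tibial-SNI (SD, n = 4 arrays each). The vascular smooth muscle list, miR-143 and miR-145, ranged from −3.21 to −1.58 in Sham, −3.45 to −1.12 in Sural-SNI and −2.20 to −0.74 in Tibial-SNI. The endothelium list, both arms of miR-126, ranged from −1.48 to 0.86 in Sham, −1.19 to 0.86 in Sural-SNI and −0.64 to 1.06 in Tibial-SNI. The skeletal muscle list (3 of 3) ranged from −3.36 to −2.75 in Sham, −3.79 to −3.20 in Sural-SNI and −3.63 to −0.59 in Tibial-SNI, with means of −3.54 in Sural-SNI and −2.47 in Tibial-SNI. Its miR-1 assay was the one named after the mouse miR, at a mean Ct of 30.8. A further miR-1 assay, named after the rat miR and at a mean Ct of 27.6, was left out. The leukocyte list (4 of 5) averaged −2.67, −2.30 and −2.28 in the 3 groups, and the red blood cell list (1 of 2) −2.31, −1.94 and −2.08. The smooth muscle, endothelium, skeletal muscle and leukocyte lists thus had their highest means in Tibial-SNI, as miR-24 did. The sensory neuron and red blood cell lists did not. For leukocytes the means of Sural-SNI and Tibial-SNI, −2.30 and −2.28, differed by less than their SDs of 0.69 and 0.46. Most miRs lay this way: 125 of 154 were higher in Tibial-SNI than in Sham, and 93 of 154 were higher than in Sural-SNI. No list was entirely absent from the tissue, and the part of these cells in the level of miR-24 was not tested.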

How the data were processed

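MiRs of single DRG were measured on 12 TaqMan rodent cards (Card A, version 2). The authors amplified for 40 cycles with no limit on Ct, deposited Ct values that were not normalized, and included miRs found on every array. These Ct values are the unit used here. The authors' separate table of linear fold changes against Sham holds their own comparison and was not used. Ct carries no count of molecules, so the precision was taken from the spread between arrays.

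The 4 wells of MammU6 were averaged, and −ΔCt was taken against the mean Ct of MammU6, snoRNA135 and U87. log2(fold change) was −ΔCt minus that of the Sham array of the same level and number. log2(fold change) served to compare Tibial-SNI with Sural-SNI. Each injury was compared with Sham, and L4-DRG with L3-DRG, on −ΔCt over 12 arrays with the other factor as a covariate. Differences between levels were contrasts of the 6 group means. All used limma 3.58.1 in R 4.3.3, two-sided, with Benjamini-Hochberg adjustment over 154 miRs. Exact tests of surgery groups went through all splits in R. Correlations and their permutations used numpy 2.4.6, with ranks from scipy 1.17.1. The fits were run on simulated data with a log2 change of 3 in Tibial-SNI in 30 of 154 miRs. For Tibial-SNI minus Sham 75.8% of these were recovered without and 95.3% with the replicate block, with 0.15 and 1.45 false calls per draw. That change is far larger than the member differences from Sham. Smaller changes were not simulated, so the power to find them is not known.

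The labels number the arrays of each group 1 and 2. In the pairing check, arrays of equal level and number had deviations from their group means that correlated at r of 0.46 to 0.81 (12 pairs), and arrays of different number at −0.79 to −0.51 (24 pairs). Centring each surgery group, which holds both numbers, itself pushes arrays of different number towards a negative r. Arrays of equal number and different level were not compared. The check thus shows the split by number and cannot show that level and number form pairs. The block of level and number was a choice made here, not a stated design. The block was level and number for surgery, and number alone where levels were compared. Alternatives were each reference alone, the mean of all miRs, a Ct of at most 35, a variance trend, the replicate block, leaving out each array, the mean of both Sham arrays, the level as a covariate, 1 fit of 12 arrays, exact permutation and the methods' own tests. By rule the named miRs are the members, the references, the 5 miRs most like miR-24 and the marker lists. miR-126-3p as the next earliest miR was named after its values were seen. The members and lists were chosen with earlier results of these data known.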

Additional observations from a re-analysis of the deposited data

Results flagged for a closer look

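In 36 groups of 4 or 6 arrays tested over the 4 members, 1 array stood apart from the rest of its group. It was the L4-DRG Sural-SNI array of replicate 1, with a −ΔCt of 4.51 for miR-24, while the nearest of the other 3 Sural-SNI arrays was at 5.06. Chance marks about 1 in 20 independent groups, but these groups share arrays. Groups by surgery or level hold both replicate numbers. For miR-23b, miR-27a and miR-27b the gap between the numbers widens the −ΔCt range of such groups, so an array could hardly stand apart there. Without the L4-DRG Sural-SNI array of replicate 1 the difference of miR-24 between Sural-SNI and Sham was 0.23 in place of 0.08. That between Tibial-SNI and Sural-SNI was 0.20 in place of 0.31.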

How the results depend on the processing

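No member passed an adjusted p of 0.05 by limma under any alternative run, the lowest being 0.414. Of 225 member differences recomputed with no array singled out, 216 kept their direction and 9 turned. Only a change of reference could move a difference in these balanced groups, and all 9 came with one. The other alternatives returned the difference unchanged by construction, so 216 of 225 overstates how firmly the direction held. With the mean of all miRs for a reference, the difference of Sural-SNI from Sham turned to −0.072 for miR-24, that of Tibial-SNI from Sham to −0.088 for miR-27a, and the level difference of Sural-SNI minus Sham to 0.077 for miR-24 and 0.22 for miR-23b. With MammU6 alone, L4-DRG minus L3-DRG turned to 0.091 for miR-24 and 0.058 for miR-23b, and the level difference of Tibial-SNI minus Sham to −0.26 and −0.13. With snoRNA135 alone, L4-DRG minus L3-DRG of miR-27a turned to −0.080. The replicate block, the pairing by level and number, left every difference at its value: that of miR-24 between Tibial-SNI and Sham stayed 0.39, with an adjusted p of 0.452 in place of 0.997. With the block and without the L3-DRG Tibial-SNI array of replicate 1, chosen after seeing the data, miR-27b turned to 0.30 for Tibial-SNI minus Sham and 0.35 for Tibial-SNI minus Sural-SNI, and miR-27a to −0.29 for Tibial-SNI minus Sham, which makes 3 of 16. A Ct of at most 35 on all arrays left 134 miRs and dropped miR-27b. Of the 12 relations among members, 3 passed an adjusted p of 0.05 on Ct without a reference by Pearson's r and 0 by Spearman's rho (exact permutation tests), and 0 passed by either on both other scales. The causes of these changes were not tested.

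Leaving out each array in turn, 22 of 28 member differences turned in at least 1 fit. These fits have no block, so dropping an array also unbalances the replicate numbers, and the ranges of miR-23b, miR-27a and miR-27b include that gap. Without the L3-DRG Tibial-SNI array of replicate 1, Tibial-SNI minus Sham was 1.05, 0.31 and 1.09 for these members, and 0.46, −0.29 and 0.30 with the block. Tibial-SNI minus Sham ranged from 0.32 to 0.48 for miR-24, −0.17 to 1.23 for miR-23b, −0.66 to 1.08 for miR-27a and −1.86 to 1.09 for miR-27b. Sural-SNI minus Sham ranged from 0.0078 to 0.23 for miR-24, −0.47 to 0.95 for miR-23b, −0.45 to 0.93 for miR-27a and −0.77 to 1.16 for miR-27b. Tibial-SNI minus Sural-SNI ranged from 0.20 to 0.41 for miR-24, 0.014 to 0.51 for miR-23b, −0.78 to 0.39 for miR-27a and −1.19 to 0.35 for miR-27b. L4-DRG minus L3-DRG ranged from −0.15 to 0.0043 for miR-24, −0.59 to 0.35 for miR-23b, −0.44 to 0.72 for miR-27a and 0.12 to 2.09 for miR-27b. The level difference of Sural-SNI minus Sham ranged from −0.57 to 0.023 for miR-24, −1.99 to 1.74 for miR-23b, −2.53 to 0.91 for miR-27a and −4.03 to 0.65 for miR-27b. The level difference of Tibial-SNI minus Sham ranged from −0.15 to 0.21 for miR-24, −1.70 to 2.03 for miR-23b, −3.76 to 0.36 for miR-27a and −3.52 to 4.37 for miR-27b. The level difference of Tibial-SNI minus Sural-SNI ranged from 0.005 to 0.59 for miR-24, −1.54 to 2.13 for miR-23b, −2.95 to 1.17 for miR-27a and −1.83 to 6.06 for miR-27b. These fits leave groups of a level with 1 array, which is assumed to vary like the others. Counts of molecules are not in the files, and the late Ct of miR-23b, miR-27a and miR-27b in replicate 1 limits what their differences can show.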
